A study of Mus musculus with 4 samples.

Results

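The 38 genes described here encode the steps by which a cell takes up glucose, breaks it down to pyruvate, exports lactate and runs the pentose phosphate pathway, together with regulators and targets of the transcription factor HIF-1. They were chosen by symbol. All 38 were found among the 23284 symbols of each library, 1 of them (Pkm) under its older symbol Pkm2. The study sequenced total RNA of macrophages grown from the bone marrow of C57BL/6 mice aged 7 weeks. There were 2 libraries labelled Sema6D-/-, the label for mice without a working gene for the membrane semaphorin Sema6D, and 2 labelled wild type. All cells had received IL-4 for 24 h, so no library shows the level before this cytokine. The labels do not say whether the 2 libraries of a genotype come from separate mice or cultures. The p-values therefore measure only the spread between these libraries, which may be technical.

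Glycolysis turns glucose into pyruvate in the cytosol and yields ATP without oxygen, and lactate dehydrogenase then turns pyruvate into lactate, which leaves the cell. The pentose phosphate pathway branches off at glucose phosphate and makes NADPH and ribose. HIF-1 is a dimer whose alpha subunit is marked for destruction by prolyl hydroxylases while oxygen is present, and it activates many genes of glucose uptake and glycolysis. Macrophages activated by bacterial products are known for strong glycolysis, and those activated by IL-4 for a larger use of oxidative metabolism, although glucose is used there too.

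Values are FPKM, fragment numbers scaled to transcript length and library depth, which allows a rough comparison of levels between genes. This may not hold for genes that share near-identical stretches with other genes. Among the members these are Gapdh, Eno1, Pgk1, Pfkp, Bnip3, Ldha, Gpi1, Tpi1, Pgam1, Pkm, Ldhb and Rpe. The files hold no counts, but the low values fall on steps from which depth can be estimated. Per 1 kb of transcript, 1 fragment came to about 0.119 and 0.116 FPKM in the libraries labelled Sema6D-/- and 0.109 and 0.107 FPKM in those labelled wild type, which were thus slightly deeper. Sema6d itself, on chromosome 2, was low throughout, at 0.106 and 0.315 FPKM under the label Sema6D-/- against 0.166 and 0.389 under the label wild type, and does not separate the labels (difference in a fit without a filter -0.08 ± 0.13, adjusted p = 0.788). Sample titles begin with W under the label Sema6D-/- and with K under the label wild type, so every direction here is that of the genotype label. These values do not tell whether the labels were exchanged, in which case every direction would reverse. All 8 macrophage markers passed the filter, from Mertk at 9.16 to 12.1 FPKM up to Lyz2 at 2445 to 3266 FPKM. Of these Adgre1 was higher under the label Sema6D-/- (difference 0.50, adjusted p = 0.0056) and Itgam and Lyz2 were lower (-0.47 and -0.37, adjusted p = 0.00963 and 0.017). That is 12.5% higher and 25% lower, against 4.8% and 4.91% of all genes tested. The summed FPKM of 11 neutrophil markers was 799.9 and 659 under the label Sema6D-/- against 264 and 254 under the label wild type. These sums mostly follow S100a8, at 295 and 232 against 72.2 and 79.1 FPKM, and S100a9, at 343 and 289 against 98.8 and 89.6. Of the 10 tested, 6 were higher and 1 lower (60% and 10%, against 4.8% and 4.91% of all genes tested), and 3 were not called. The lower one was Csf3r, at 22.8 and 20.4 against 36.1 and 34.2 FPKM. Of 8 mast cell, basophil and eosinophil markers 3 were tested and all were called (100%, against 9.72% of all genes tested). Mcpt8 and Prg2 were higher and Siglecf lower, with summed levels of all 8 at 18.3 and 12.3 FPKM against 12.8 and 13.96. Of 8 dendritic cell markers 2 were tested. Itgax was lower (50%, against 4.91% of all genes tested) at 304 and 320 against 402 and 407 FPKM, and Ccr7 was not called. The B cell gene Pax5 was at 0 in every library. Fewer cells of a type and less RNA per cell cannot be told apart in such samples, and the markers called here differ between the labels beside every result below that does. Their part in those results was not tested.

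In the libraries labelled Sema6D-/-, 5 members fell and 2 rose, where 4.91% and 4.8% of all genes tested did so. Those that fell encode a hexose transporter (Slc2a6), a pair of hexokinases (Hk1 and Hk2), a minor aldolase (Aldoc) and an exporter of lactate (Slc16a3). The 2 that rose were Vegfa, the gene for a growth factor of blood vessels, and Pgd, a dehydrogenase of the pentose phosphate pathway. Aldoa, Pkm and Ldha, the most abundant of the tested genes from glucose to lactate, differed by at most 0.06 in log2(FPKM + 1) and did not pass. Calls are at an adjusted p under 0.05 by limma on log2(FPKM + 1). Of all genes, 10115 reached a mean of 1 FPKM and were tested, among them 34 of the 38 members. Without Sema6D-/- replicate 1 the calls of Slc2a6 and Vegfa remained, without Sema6D-/- replicate 2 also that of Aldoc, and without either wild type library those of Slc2a6, Aldoc, Slc16a3 and Vegfa.

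The members called came to 20.6% of those tested, against 9.72% of all genes tested. By direction, 14.7% of the members fell against a background of 4.91%, and 5.88% rose against 4.8%. The median difference was -0.07 over the 34 members and 0.0029 over all genes tested, and 22 members had a negative difference and 12 a positive one. The libraries of the labels did not overlap for 18 of the 34 members (52.9%), a share near the 56.2% of all genes tested. The members were chosen with earlier results of these data known, so these shares are descriptions.

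**Figure D1:**
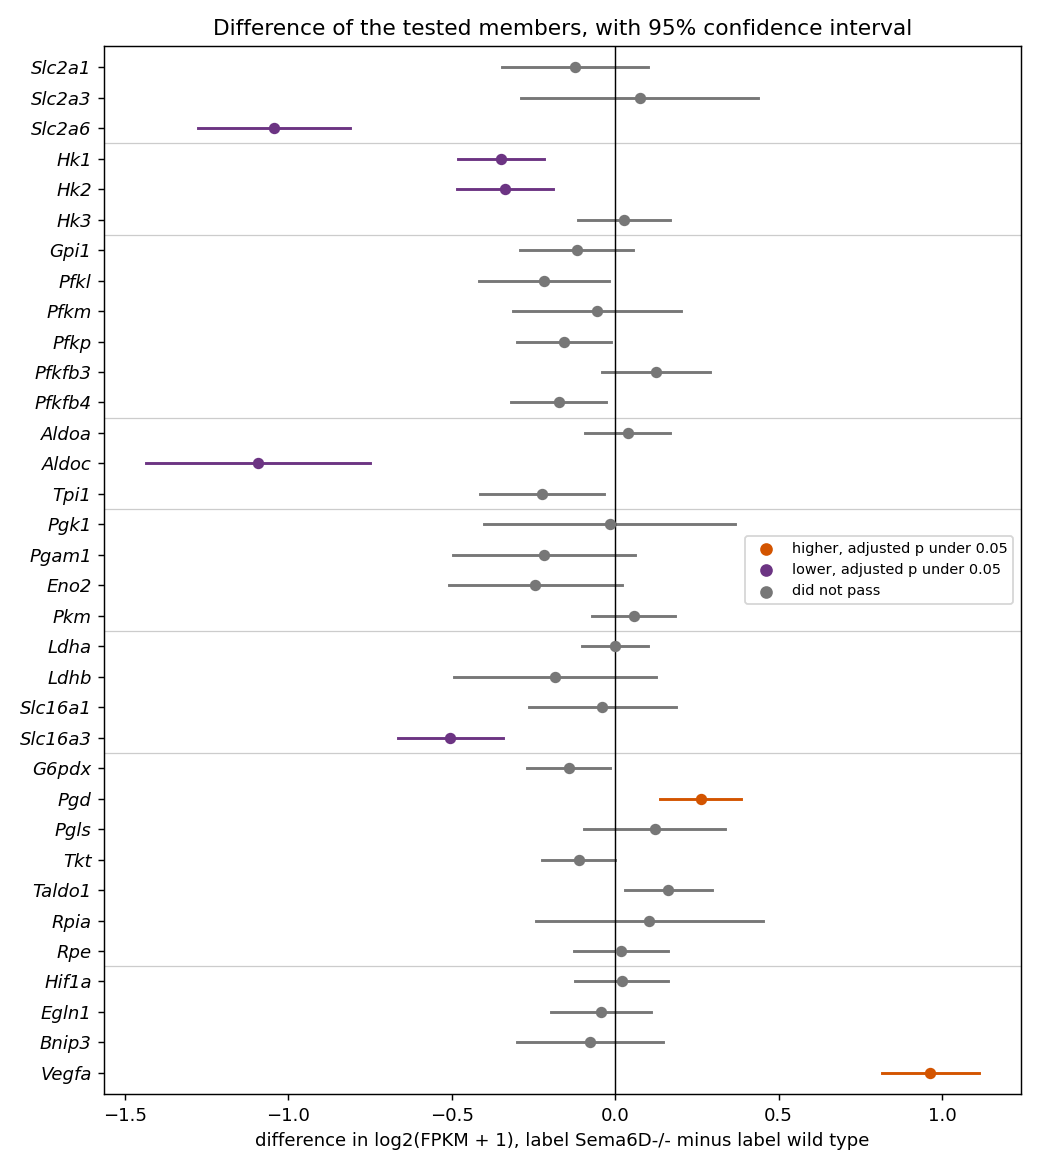
Difference in log2(FPKM + 1), label Sema6D-/- minus label wild type, of the 34 tested members in the order of the pathway, with lines for the 95% confidence interval (2 libraries per label). Slc2a6, Hk1, Hk2, Aldoc and Slc16a3 lie below 0 and past the test, Pgd and Vegfa lie above 0 and past it, and the 27 members in grey did not pass.

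Glucose enters macrophages mainly through transporters of the SLC2 family. Slc2a6, which encodes a hexose transporter of lysosomal membranes and lies on chromosome 2 from 27021363 to 27028000 (mm10), stood at 27.6 and 33.3 FPKM in the libraries labelled Sema6D-/- against 62.7 and 64.6 in those labelled wild type. Both libraries labelled Sema6D-/- were far below both others, a 2.09-fold lower mean (difference -1.04 ± 0.09 (SE), adjusted p = 0.00469). The call held without any single library (highest adjusted p = 0.0207).

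The major plasma membrane transporter gene Slc2a1 stood at 61.3 and 71.1 FPKM under the label Sema6D-/- against 75.8 and 68.4 under the label wild type. These libraries overlapped, and the difference of -0.12 had a 95% interval from -0.35 to 0.10 (adjusted p = 0.459). Slc2a3, a transporter of high affinity, was near the filter at 1.26 and 1.13 against 1.21 and 0.970 FPKM in the same order of labels. Slc2a1 thus made up 68.0% and 67.4% of the summed FPKM of the 3 transporters under the label Sema6D-/- and 54.2% and 51.1% under the label wild type. The shares of the labels did not overlap, but an exact permutation test of 2 against 2 libraries cannot give a two-sided p under 0.333, so none is given for shares.

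Hexokinases trap glucose in the cell as glucose phosphate. Hk1 stood at 24.2 and 24.9 FPKM in the libraries labelled Sema6D-/- against 31.4 and 31.8 in those labelled wild type, which is 1.28-fold lower in the mean (difference -0.35 ± 0.05, adjusted p = 0.0184). Hk2, the isoenzyme known to be induced in many proliferating and activated cells, stood at 17.9 and 18.7 against 23.1 and 23.7 FPKM in the same order (1.28-fold lower, difference -0.34 ± 0.06, adjusted p = 0.0274). In each gene the 2 libraries of a label lay within 1 FPKM of each other and apart from those of the other label. Both calls were lost whichever library was left out (highest adjusted p = 0.139 for Hk1 and 0.179 for Hk2), while the differences stayed between -0.37 and -0.31.

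Hk3 was the most abundant hexokinase gene by far. It stood at 258 and 247 FPKM under the label Sema6D-/- against 258 and 238 under the label wild type, with overlapping libraries and a difference of 0.03 (95% interval -0.11 to 0.17, adjusted p = 0.814). Its share of the summed hexokinase FPKM was 86.0% and 85.0% under the label Sema6D-/- and 82.6% and 81.1% under the label wild type. The summed level of the 3 genes was 300.3 and 291 FPKM against 313 and 294, with libraries of the labels that overlapped.

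**Figure D2:**
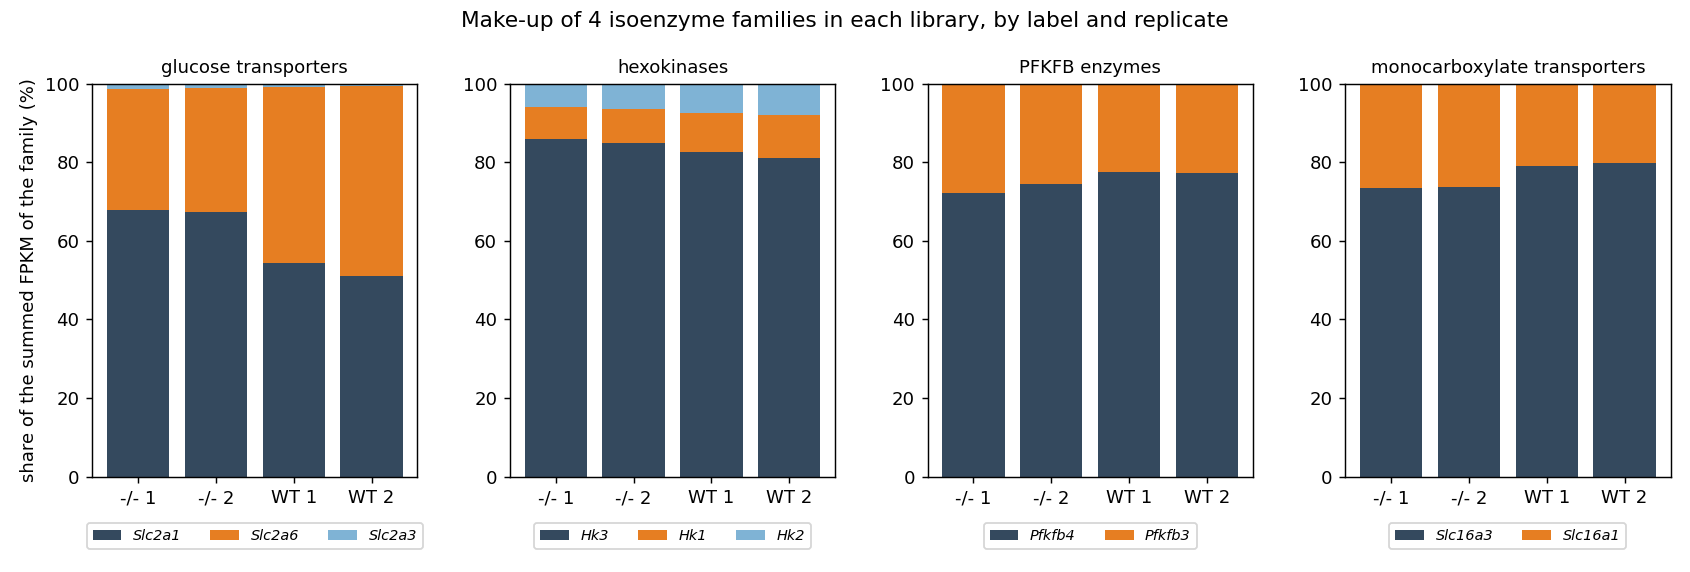
Share of each gene in the summed FPKM of its family, in percent, for the 2 libraries labelled Sema6D-/- (-/- 1 and 2) and the 2 labelled wild type (WT 1 and 2). Slc2a6 held 30.6% and 31.5% of the transporter sum under the label Sema6D-/- and 44.9% and 48.2% under the label wild type, and Hk3 held most of the hexokinase sum in every library.

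The next steps turn glucose phosphate into fructose bisphosphate, the committed step of glycolysis. None of the 6 tested genes here passed the test, where 9.72% of all genes tested did so, and nothing is read from so few genes. The difference was negative for 5 and positive for 1. Gpi1, the isomerase, stood at 97.9 and 111 FPKM under the label Sema6D-/- against 114 and 113 under the label wild type. Among the phosphofructokinases, Pfkp was the most abundant at 67.3 and 68.9 against 72.9 and 79.2 FPKM, Pfkl lay at 13.7 and 13.2 against 16.8 and 14.9, and Pfkm at 3.75 and 4.16 against 3.97 and 4.33.

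The libraries of the labels did not overlap for Pfkp or Pfkl, with differences of -0.16 ± 0.06 and -0.22 ± 0.08 (adjusted p = 0.170 and 0.171). Part of the Pfkp transcript, 748 bases, matches Pitrm1 letter for letter. The strand of the match was not recorded, so whether reads from there could be counted for either gene is not known. Pitrm1 itself differed little, at 16.1 and 15.9 against 16.0 and 15.9 FPKM.

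Pfkfb3 and Pfkfb4 make the allosteric activator of phosphofructokinase. Their values leaned opposite ways without passing. Pfkfb3 stood at 12.998 and 12.4 FPKM under the label Sema6D-/- against 11.6 and 11.5 under the label wild type (difference 0.13 ± 0.07, adjusted p = 0.314). Pfkfb4 stood at 33.7 and 36.3 against 39.8 and 39.3 (difference -0.17 ± 0.06, adjusted p = 0.141). Neither gene's libraries overlapped between the labels. Fbp1, the gluconeogenic phosphatase that runs this step backwards, was listed at 0 in 3 libraries and at 0.0803 FPKM in wild type replicate 2, the value of about 1.1 fragments.

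Aldolase splits fructose bisphosphate into trioses. Aldoc, an isoenzyme best known from brain, fell to 2.50 and 3.34 FPKM in the libraries labelled Sema6D-/-, against 7.81 and 6.84 in those labelled wild type. The groups were well apart, with a 2.51-fold lower mean (difference -1.09 ± 0.14, adjusted p = 0.0116). By the depth estimate these levels rest on at most about 58.6 and 80.2 fragments against 199.6 and 178. The call was lost without Sema6D-/- replicate 1 (adjusted p = 0.0762), where the difference was -0.94.

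Aldoa, the main aldolase and the most abundant of the 34 tested members, stood at 1074 and 1116 FPKM under the label Sema6D-/- against 1097 and 1036 under the label wild type (difference 0.04 ± 0.05, adjusted p = 0.699). It made up 99.8% and 99.7% of the aldolase sum under the label Sema6D-/- and 99.3% in each library labelled wild type, so Aldoc contributed little to that sum. Tpi1, which interconverts the trioses, stood at 175 and 192 against 227 and 202 FPKM. Its libraries did not overlap, yet the difference of -0.22 ± 0.08 did not pass (adjusted p = 0.146).

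Gapdh, the next enzyme and one of the most abundant transcripts of most cells, was listed at 0 in 3 libraries and at 0.104 FPKM in Sema6D-/- replicate 2. A 0 for such a gene can be a failed estimate and is no evidence on its level. GENCODE holds 77 other genes whose transcripts share at least 300 bases with Gapdh at 95% identity or more, and 74 of these are pseudogenes. One copy that the libraries list, Gm12070, is 99.9% identical over 1002 bases and stood at 0.994 and 1.11 FPKM under the label Sema6D-/- against 1.26 and 1.09 under the label wild type. How reads that map to several places were treated is not given in the sources used here.

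Eno1, the main enolase of most cells, was also under the filter. It was listed at 0 in both libraries labelled Sema6D-/- and at 0.805 and 0.787 FPKM in both labelled wild type, at most about 15.0 and 14.9 fragments. GENCODE lists 3 other genes with near-identical stretches. In a fit without the filter its difference of -0.84 ± 0.05 passed (adjusted p = 0.0148), but a value of 0 can be a failed estimate here too, so no fold is given. Eno2, the neuronal enolase, stood at 4.58 and 3.99 against 5.52 and 4.99 FPKM without overlap (difference -0.24 ± 0.11, adjusted p = 0.231).

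The other genes between the trioses and pyruvate did not pass. Pgk1, which makes the first ATP of the pathway, stood at 16.5 and 17.99 FPKM under the label Sema6D-/- against 20.6 and 14.8 under the label wild type. Pgam1, a mutase, stood at 21.5 and 23.1 against 23.3 and 29.1 FPKM. Pkm, pyruvate kinase, stood at 698 and 742 against 702 and 682 FPKM (difference 0.06, 95% interval -0.07 to 0.18, adjusted p = 0.550). Pgk1 has 4 near-identical copies in GENCODE and the 95% interval of its difference ran from -0.40 to 0.37.

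**Figure D3:**
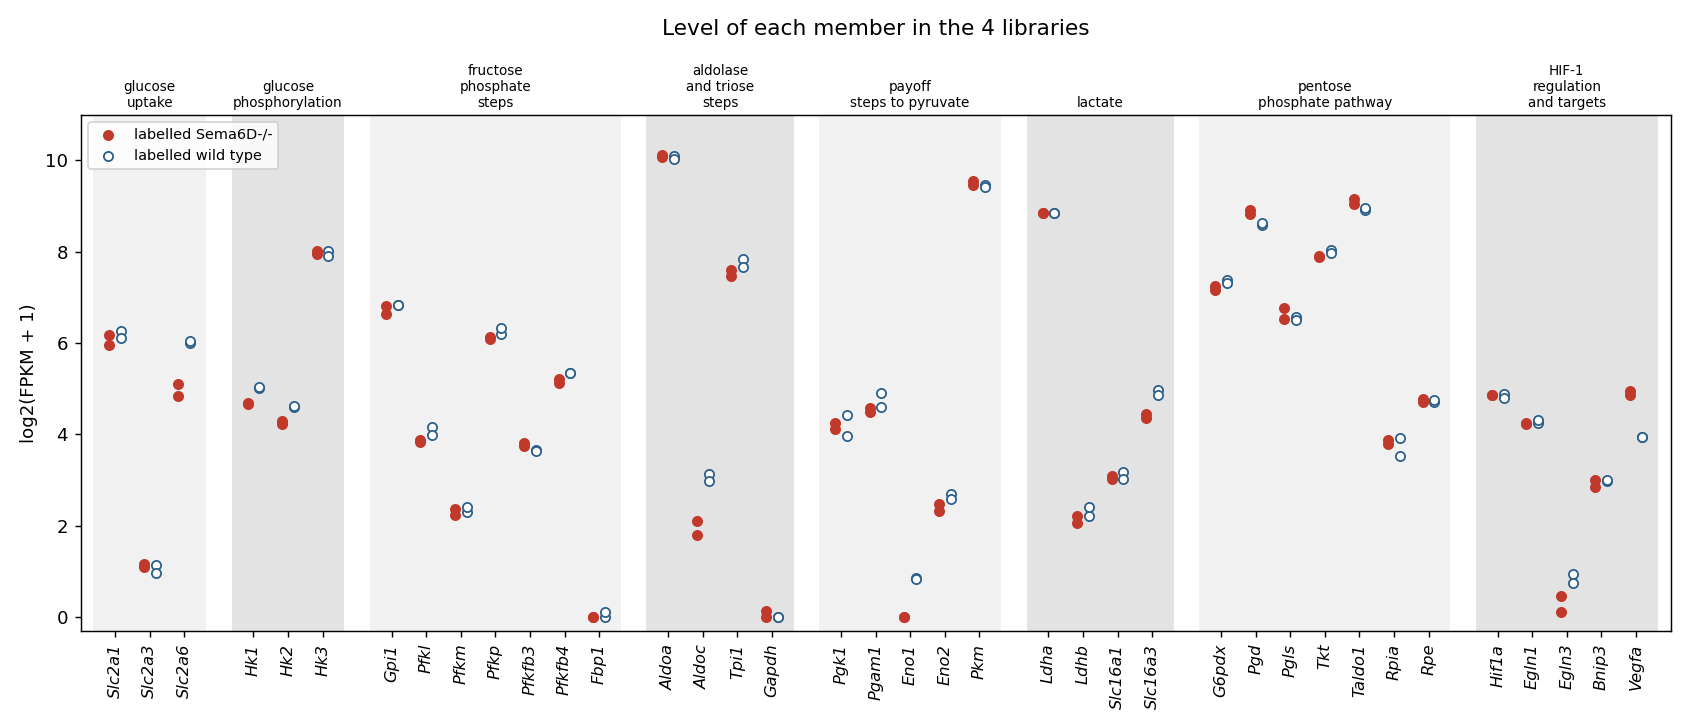
Level of the 38 members in log2(FPKM + 1), grouped by step, with filled points for the 2 libraries labelled Sema6D-/- and open points for the 2 labelled wild type. Aldoa, Pkm, Taldo1, Ldha and Pgd have the highest levels of the tested members, while Gapdh, Fbp1, Eno1 and Egln3 lie under the filter of 1 FPKM.

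At the end of the pathway, 1 of 4 members fell (25%, against 4.91% of all genes tested), the lactate exporter gene Slc16a3. Nothing is read from a single call. This transporter of low affinity is typical of cells that release much lactate. Slc16a3, on chromosome 11 from 120948484 to 120959000, stood at 19.7 and 20.8 FPKM in the libraries labelled Sema6D-/- against 30.2 and 28.1 in those labelled wild type. The libraries were clearly apart, with a 1.44-fold lower mean (difference -0.50 ± 0.06, adjusted p = 0.0123). The call was lost without either Sema6D-/- library (highest adjusted p = 0.110), while the difference stayed between -0.55 and -0.45.

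Ldha, the lactate dehydrogenase subunit that favours lactate formation, hardly varied among the 4 libraries. It stood at 458 and 460 FPKM under the label Sema6D-/- against 459 and 461 under the label wild type, a difference of -0.0018 with a 95% interval from -0.10 to 0.10 (adjusted p = 0.986). Ldhb, the other subunit, stood at 3.15 and 3.63 against 3.63 and 4.36 FPKM (adjusted p = 0.423). Slc16a1, a second monocarboxylate transporter, stood at 7.14 and 7.47 against 8.01 and 7.09 FPKM (adjusted p = 0.827). Slc16a3 made up 73.4% and 73.6% of the sum of both transporters under the label Sema6D-/- and 79.0% and 79.9% under the label wild type.

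**Figure D4:**
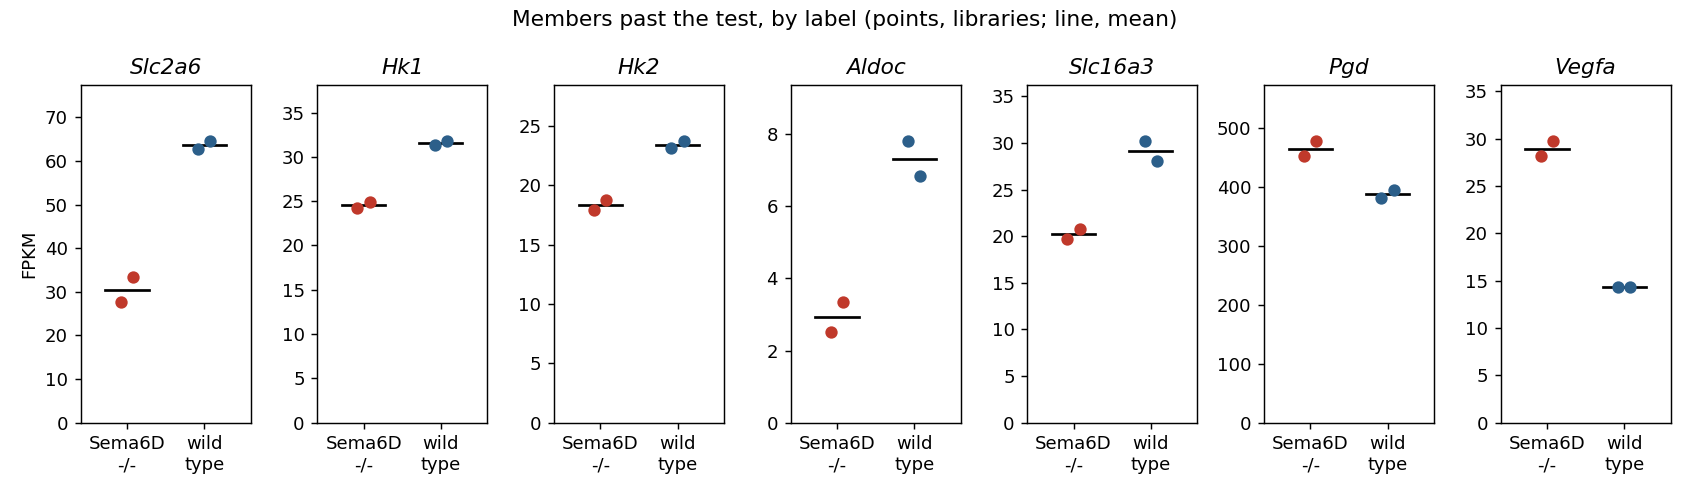
FPKM of the 7 members past the test in each library (points) with the mean of each label (line), on axes that start at 0. The panels hold only members chosen by the test, so the lack of overlap in every panel adds no support. The libraries did not overlap for 56.2% of all genes tested. Slc2a6, Aldoc and Vegfa are the furthest apart.

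In the pentose phosphate pathway 1 of 7 genes rose (14.3%, against 4.8% of all genes tested) and none fell, and nothing is read from a single call. Pgd, phosphogluconate dehydrogenase, which makes NADPH and ribulose phosphate, stood at 453 and 477 FPKM in the libraries labelled Sema6D-/- against 380.3 and 395 in those labelled wild type. At 119.9% of the mean under the label wild type, the difference passed the test (0.26 ± 0.05, adjusted p = 0.0335), and the libraries did not overlap. The call was lost whichever library was left out (highest adjusted p = 0.184), without a filter, with eBayes without a trend or with the title number as a block, while the difference kept its sign. Pgd lies on chromosome 4 from 149149991 to 149166705, and Eno1 on the same chromosome from 150236708 to 150248879. Of 104 tested genes on chromosome 4 beyond 140 Mb, a region chosen after the values were seen, 17 were called (16.3%), against 9.84% of all other genes with a position.

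The remaining enzymes of the pathway did not pass. G6pdx, glucose phosphate dehydrogenase, the entry enzyme, stood at 143 and 150.4 FPKM under the label Sema6D-/- against 165 and 158 under the label wild type, without overlap (difference -0.14 ± 0.05, adjusted p = 0.163). Its values thus lay on the other side of 0 from those of Pgd. Pgls, the lactonase between them, stood at 108 and 91.5 against 93.6 and 89.3 FPKM.

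The sugar exchange enzymes also leaned opposite ways. Taldo1, transaldolase, stood at 529 and 569 FPKM under the label Sema6D-/- against 483 and 497 under the label wild type (difference 0.16 ± 0.05, adjusted p = 0.134). Tkt, transketolase, stood at 235 and 237 against 261 and 249 (difference -0.11 ± 0.04, adjusted p = 0.200). Neither overlapped between labels. Rpia and Rpe, which interconvert the pentose phosphates, stood at 12.9 and 13.6 against 14.3 and 10.6 FPKM and at 26.6 and 25.1 against 25.2 and 25.8, with overlapping libraries. The summed FPKM of all 7 genes was 1507 and 1564 under the label Sema6D-/- and 1423 and 1425 under the label wild type.

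Among the 4 tested HIF-1 genes 1 rose, Vegfa (25%, against 4.8% of all genes tested), and none fell. Vegfa, on chromosome 17 from 46016993 to 46032377, stood at 28.2 and 29.7 FPKM in the libraries labelled Sema6D-/- against 14.3 and 14.4 in those labelled wild type. It was 2.02-fold higher in the mean, with a difference of 0.96 ± 0.06 and the smallest adjusted p of the members (0.00174). The call held without any single library (highest adjusted p = 0.0264) and under every other setting tried. Vegfa is induced by HIF-1 and by several other factors.

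The regulators differed little. Hif1a, the oxygen-sensitive subunit, stood at 27.97 and 27.99 FPKM under the label Sema6D-/- against 28.5 and 26.7 under the label wild type (difference 0.02, 95% interval -0.12 to 0.16, adjusted p = 0.859). Its activity is set mainly by protein stability, which RNA does not show. Egln1, the main prolyl hydroxylase that marks the subunit, stood at 18.01 and 17.8 against 17.99 and 19.004 FPKM (adjusted p = 0.714). Bnip3, a mitophagy receptor induced by HIF-1, stood at 6.96 and 6.17 against 6.95 and 6.99 (adjusted p = 0.651).

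Egln3, a prolyl hydroxylase that HIF-1 itself induces, lay under the filter. It stood at 0.0891 and 0.387 FPKM in the libraries labelled Sema6D-/- against 0.937 and 0.677 in those labelled wild type, at most about 2.0 and 8.9 against 22.9 and 16.8 fragments. The libraries did not overlap, but the difference of -0.55 ± 0.15 in a fit without the filter did not pass (adjusted p = 0.162).

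HIF-1 binds DNA at the core motif ACGTG, and the bases before a start site show where these letters stand. The 250 bases before each listed start were read from RefSeq (GRCm38.p6, the assembly that mm10 names), for the 37 members with an entry, and searched for ACGTG on both strands, the other strand reading CACGT. The E-box CACGTG holds both and was counted once. Below are the 3 members with a single listed start that fell, Vegfa at its most upstream start as the member with the largest rise, and Ldha at its first start as the member with the difference nearest 0. Capitals mark the motif on either strand, and each sequence runs 5′ to 3′ on the strand of the gene.
Slc2a6 (chr2:27027999-27028248, minus strand): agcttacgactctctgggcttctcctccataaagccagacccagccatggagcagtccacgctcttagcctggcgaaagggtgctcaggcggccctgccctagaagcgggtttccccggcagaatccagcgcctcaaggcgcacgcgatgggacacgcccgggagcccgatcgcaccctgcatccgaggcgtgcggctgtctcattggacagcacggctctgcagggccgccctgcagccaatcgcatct
Hk2 (chr6:82774455-82774704, minus strand): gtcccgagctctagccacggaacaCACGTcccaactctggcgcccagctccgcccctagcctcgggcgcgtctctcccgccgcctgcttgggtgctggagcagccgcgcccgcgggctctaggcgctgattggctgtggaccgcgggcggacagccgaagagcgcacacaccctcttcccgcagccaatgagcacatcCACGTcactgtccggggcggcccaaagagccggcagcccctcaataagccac
Slc16a3 (chr11:120948817-120949066, plus strand): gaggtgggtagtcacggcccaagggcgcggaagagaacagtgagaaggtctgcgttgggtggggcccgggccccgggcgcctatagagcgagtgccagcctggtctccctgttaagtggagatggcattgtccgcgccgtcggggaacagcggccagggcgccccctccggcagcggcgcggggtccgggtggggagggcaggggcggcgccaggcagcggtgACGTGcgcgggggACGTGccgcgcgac
Vegfa (chr17:46032378-46032627, minus strand): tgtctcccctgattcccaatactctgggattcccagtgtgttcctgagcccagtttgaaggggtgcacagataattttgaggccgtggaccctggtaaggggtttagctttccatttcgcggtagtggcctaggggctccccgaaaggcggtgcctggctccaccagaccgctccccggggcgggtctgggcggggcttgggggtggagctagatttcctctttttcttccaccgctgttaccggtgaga
Ldha (chr7:46845554-46845803, plus strand): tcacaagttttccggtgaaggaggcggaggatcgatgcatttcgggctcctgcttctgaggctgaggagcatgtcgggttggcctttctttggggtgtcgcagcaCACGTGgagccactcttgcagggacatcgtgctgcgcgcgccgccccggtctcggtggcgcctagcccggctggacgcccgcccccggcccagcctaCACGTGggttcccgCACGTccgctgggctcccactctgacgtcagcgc

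Too few members were called for these windows to show whether the motif goes with a direction, and none is read from them. Hk2 and Slc16a3, which fell, held 2 stretches each, those of Slc16a3 both within 27 bases of the start, and Ldha held 3. Slc2a6, which fell, and Vegfa, which rose, held none there, although the window of the second listed start of Vegfa held 1. Of 51 windows of members 20 held the motif (39.2%), against 22.6% of windows of all genes tested and 16.6% of all windows. Among members that fell, 2 of 7 windows held it, among those that rose 1 of 4, and among those that did not pass 16 of 34. Windows of 1 gene can overlap, and a match is a description of the letters, not of binding.

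Other genes of the same pathways were read from 7 further lists with 105 entries, 71 of them tested. Of these 5 rose and none fell (7.04% and 0%, against 4.8% and 4.91% of all genes tested, 9.72% of which were called either way). Their median difference was 0.05. Without any 1 of the 4 libraries only the call of Pck2 remained. Pck2, the mitochondrial phosphoenolpyruvate carboxykinase, stood at 17.6 and 16.6 FPKM in the libraries labelled Sema6D-/- against 6.52 and 6.22 in those labelled wild type (difference 1.29 ± 0.07, adjusted p = 0.00145). On the list of other glycolysis and gluconeogenesis it was the 1 of 13 tested genes to pass (7.69%, against 4.8% of all genes tested higher and 9.72% called). Pdha1, a subunit of pyruvate dehydrogenase and the most abundant gene of that list, stood at 32.1 and 32.8 against 33.2 and 32.9 FPKM (adjusted p = 0.787).

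Of 21 other hypoxia-induced genes tested, 3 rose (14.3%, against 4.8% of all genes tested) and none fell. Ndrg1, a stress response gene, stood at 11.7 and 10.2 FPKM under the label Sema6D-/- against 6.86 and 7.62 under the label wild type (adjusted p = 0.0297). P4ha2, a collagen prolyl hydroxylase subunit, stood at 2.39 and 2.31 against 1.07 and 1.19 (adjusted p = 0.0335), and the mitophagy receptor gene Bnip3l at 44.4 and 44.04 against 35.4 and 37.4 (adjusted p = 0.0342). These 3 calls were lost whichever library was left out (highest adjusted p = 0.197). Bhlhe40, the most abundant gene of the list, stood at 93.5 and 96.8 against 108 and 102 FPKM and did not pass (adjusted p = 0.165).

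Of 9 tested glycogen genes, 1 rose (11.11%, against 4.8% of all genes tested higher and 9.72% called). Gyg, glycogenin, the primer of glycogen synthesis, stood at 56.0 and 54.9 FPKM under the label Sema6D-/- against 46.3 and 43.99 under the label wild type (adjusted p = 0.0277), a call that was lost whichever library was left out (highest adjusted p = 0.178). The 4 remaining lists had no call at an adjusted p under 0.05. On them, the most abundant genes were Bsg, the chaperone of lactate transporters, at 178 ± 2.2 and 167 ± 1.7 FPKM (SD, n = 2 libraries each, label Sema6D-/- first), Txnip, a glucose-induced brake on uptake, at 243 ± 3.0 and 250.1 ± 11, Dera at 30.2 ± 1.6 and 26.9 ± 3.5, and Cited2 at 30.5 ± 0.27 and 27.9 ± 3.1.

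**Figure D5:**
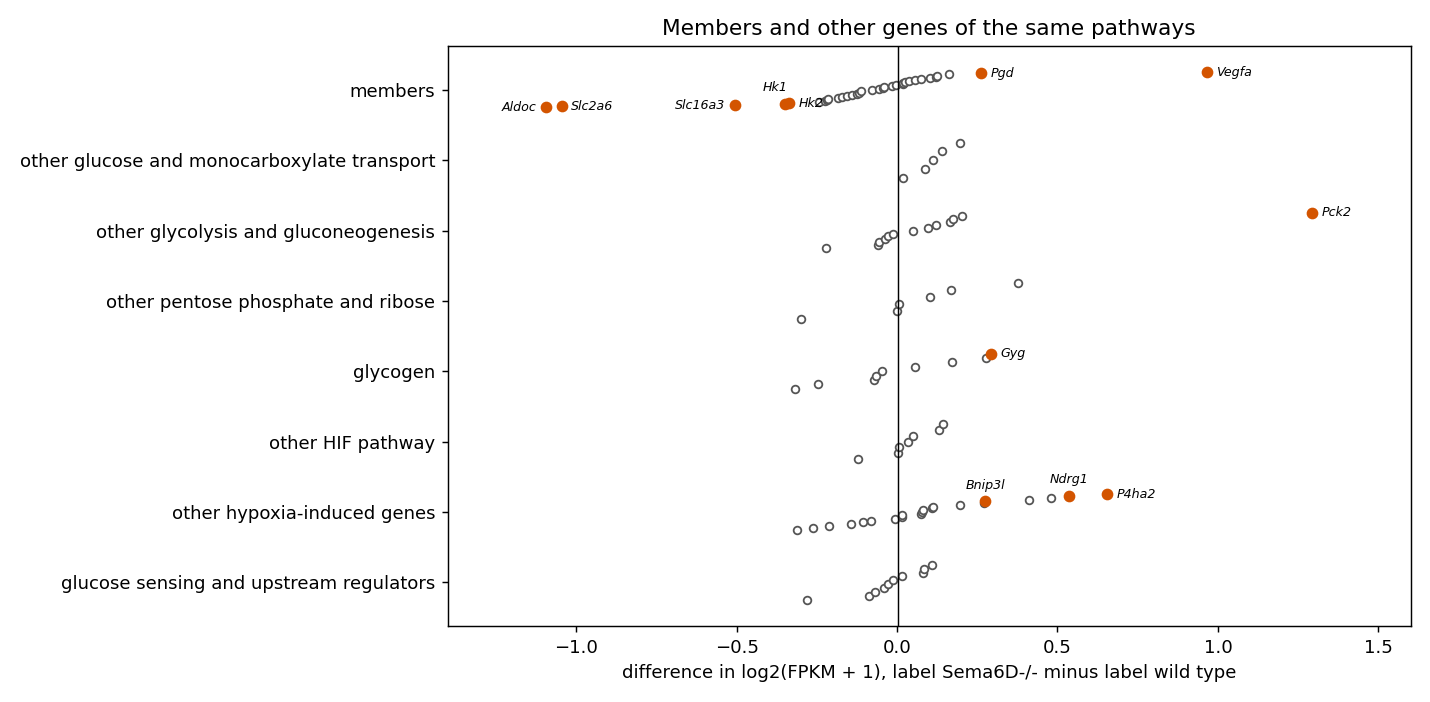
Difference in log2(FPKM + 1), label Sema6D-/- minus label wild type, of the tested members and of 71 other genes of the same pathways by list, with filled points for genes at an adjusted p under 0.05 and a vertical line at the median of all genes tested. The 5 members that fell lie to the left, and the 5 other genes that passed, Pck2, Gyg, Bnip3l, P4ha2 and Ndrg1, lie to the right.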

How the data were processed

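RNA of 4 libraries was analysed, 2 per genotype label. The deposited values are FPKM per gene symbol, which the authors normalized between libraries with Cuffnorm 2.2.1 after alignment to mm10 by TopHat2 2.0.13 with Bowtie2 2.2.3 and SAMtools 0.1.19, per the submitters' processing notes. The library kit keeps the strand, per the labels' protocols. The sources used here do not give the annotation, whether quantification used strand, or what was done with reads of several positions. Of 23284 symbols, 25 that read as dates had no value.

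Groups follow the genotype label. The test was limma's (version 3.58.1, R 4.3.3) on log2(FPKM + 1), two-sided, with lmFit and a trended eBayes. It covered genes whose mean over the 4 libraries reached 1 FPKM, with Benjamini-Hochberg adjustment over all of them. On this scale the change of low genes is understated. Errors are SE for differences and SD for levels (n = 2), and folds are ratios of mean FPKM. The test was run on simulated data with independent noise per library, which cannot address replicates that may be technical. Of 50 genes changed by 0.25 in log2 it recovered 8, of 50 changed by 0.5 it recovered 42, and of 50 changed by 1.0 all 50. The changed genes were all drawn from those above about 5 FPKM, so the recovery of lower genes was not tried. Of 157 calls 7 were false. A small difference that did not pass is thus not shown to be absent. FPKM hold no counts, so depth was estimated from the lowest value steps of genes with a single GENCODE M21 transcript over 2 kb. Fragment numbers assume the longest coding transcript and cover counting error only. Near-identical copies were searched with BLAST+ 2.17.0. Positions and promoter sequences are RefSeq's (GRCm38.p6).

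All members were named, and of each other list the genes past the threshold and the most abundant one. The members and lists were chosen with earlier results of these data known. The alternatives were other pseudocounts (0.1 and 5), another filter (none, or a mean of 5 FPKM), another scaling (median of ratios, or quantiles), an eBayes step that is robust or has no trend, the title number as a block, and each library left out in turn.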

Additional observations from a re-analysis of the deposited data

How the results depend on the processing

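The 7 members past the test kept their direction under every alternative tried, and Slc2a6 and Vegfa also kept their calls in each. Pgd and Hk2 lost theirs with no filter, with eBayes without a trend and with the title number as a block, which left 1 member higher each time. Leaving out 1 library, where the lone library of a label is assumed to vary like the others, left 1 member higher in every case and 1 to 3 lower. The 5 other pathway genes that rose became 1 with no filter, 2 with eBayes without a trend, and 1 with the block or without any 1 library, but 7 with robust eBayes, which added Prps1 and Pgm1. With no filter 1 also fell, Nos2. Over all genes tested 983 were called, against 1177 with robust eBayes, 504 with no filter, 588 with eBayes without a trend, 637 with the block and 159 to 546 without 1 library (159 without Sema6D-/- replicate 1 and 276 without Sema6D-/- replicate 2). The title numbers are not shown to pair the libraries, since the deviations of same-numbered libraries had a correlation of -0.0183 over 10115 genes, so the block shares only a number.

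Members near 0 changed sign without passing. With quantile normalization the difference became -0.0205 for Hk3, -0.0081 for Aldoa and -0.0612 for Pkm, and the cause was not tested. Without 1 library it ranged from -0.0074 to 0.16 for Slc2a3, -0.0311 to 0.0837 for Hk3, -0.12 to 0.0039 for Pfkm, -0.0020 to 0.0793 for Aldoa, -0.24 to 0.21 for Pgk1, -0.0049 to 0.0014 for Ldha, -0.12 to 0.0389 for Slc16a1, -0.10 to 0.31 for Rpia, -0.0218 to 0.0574 for Rpe and -0.0232 to 0.0636 for Hif1a. A single fragment on 1 kb is worth 0.107 to 0.119 FPKM, so Egln3, Fbp1, Eno1 and Gapdh rest on few or no fragments.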

Other observations

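A sum over a step can follow 1 gene and is no shift of the whole step. The glucose transporter genes summed to 90.1 and 106 FPKM in the libraries labelled Sema6D-/- against 139.7 and 134 in those labelled wild type. Within these sums the means were 30.5 and 63.6 FPKM for Slc2a6 and 66.2 and 72.1 for Slc2a1, whose libraries overlapped. The pentose phosphate genes summed to 1507 and 1564 against 1423 and 1425, also without overlap. The sums of the HIF-1 genes were 81.2 and 82.1 against 68.6 and 67.8, with Vegfa at means of 28.9 and 14.3. Those of the lactate genes were 488 and 492 against 501 and 500.5, with Slc16a3 at means of 20.3 and 29.1. The fructose phosphate steps summed to 229 and 246 against 259 and 262. The aldolase and triose steps summed to 1252 and 1312 against 1332 and 1246, which overlap and leave out what a full estimate of Gapdh would add. Sums of the payoff steps to pyruvate, at 740.3 and 787 against 752 and 732, overlapped and leave out what a full estimate of Eno1 would add.

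Nos2, which makes nitric oxide in macrophages activated by bacterial products and stands on the list of hypoxia-induced genes, lay under the filter and was named after its value was seen. It stood at 0.0872 and 0.1403 FPKM in the libraries labelled Sema6D-/- against 1.12 and 1.14 in those labelled wild type.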
